A study of Mus musculus with 8 samples.

Results

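The genes described here are 43 lysosomal genes of the mouse: 11 proteases (the cathepsins, legumain and tripeptidyl peptidase 1), 5 glycosidases, 6 genes of lipid breakdown and sterol export, 6 membrane proteins, 2 transcription factors of the MiT family and 13 genes of the proton pump. Membership was decided by gene symbol, and all 43 were found among the 55385 genes of the count table. All 43 also passed the filter on low counts that left 17537 genes for testing. They lie on 20 chromosomes, with 5 on X, and Ctsk and Ctss are neighbours on chromosome 3, 17423 bases apart.

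The study treated primary microglia with IgG and sequenced polyA RNA from 4 control and 4 IgG libraries, to see which genes respond to the antibody. The cells came from neocortex and hippocampus of newborn wild-type mice, pooled across brains, grown as mixed glia, detached by shaking and replated. IgG was given at 10 µg/ml for 24 h from day 15 in vitro (DIV15), and the labels call the control cells untreated, while the study's methods name phosphate-buffered saline. Libraries with the same number in both groups carry 1 date in their labels, which makes 4 pairs. No allele or other agent distinguished the groups. The cells are a culture model in serum-containing medium.

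Library totals ran from 21287816 to 23571277 counts in control and from 22000403 to 23703216 in IgG. Mitochondrial genes took 2.32 to 2.41% of the counts in control, but 4.85, 2.21, 5.59 and 1.97% in IgG libraries 1 to 4, so IgG libraries 1 and 3 stood apart. The 12 markers of microglia and macrophages were all detected and summed to 8497 to 9363 CPM (counts relative to the TMM-scaled library total) in control and 9401 to 10090 CPM in IgG without overlap. Of them, 10 had higher fitted values with IgG, the median log2 fold change was 0.20, and edgeR called Fcrls (0.83, adjusted p 0.0329) and Aif1 (0.69, adjusted p 0.0331). Homeostatic markers were low, with control means of 5.09 CPM for Tmem119 and 6.98 CPM for P2ry12. Oligodendrocyte-lineage markers summed to 1198 to 1826 CPM in control and 1027 to 1716 CPM in IgG, and all 9 had lower fitted values with IgG. Astrocyte markers summed to 131 to 145 CPM in control and 119 to 139 CPM in IgG, with 7 of 8 lower. Fibroblast markers summed to 673 to 1272 CPM in control and 591 to 857 CPM in IgG, and Fn1 made up nearly all of these sums. Fn1 alone had 666, 1098, 941 and 1266 CPM in control and 586, 851, 809 and 727 CPM in IgG. It was lower in all 4 pairs (log2 fold change -0.39, edgeR adjusted p 0.367). The other 4 tested had fitted values above 0, at levels of at most 3.68 CPM in any library. Neuronal markers summed to 42.8 to 69.5 CPM in control and 36.9 to 56.3 CPM in IgG (6 of 7 lower), markers of border-associated macrophages to 57.5 to 82.5 and 52.3 to 108 CPM (3 of 4 higher), and those of osteoclast-like macrophages to 70.6 to 80.5 and 72.0 to 80.9 CPM (3 of 4 higher). The part of these cell types and of the mitochondrial share in the results that follow was not tested. In bulk RNA, fewer cells of a type and less RNA per cell cannot be told apart.

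Lysosomes are acidic organelles in which hydrolases break down proteins, glycans and lipids that arrive by phagocytosis, endocytosis and autophagy. The vacuolar ATPase acidifies them: its membrane-embedded V0 sector conducts protons while its cytosolic V1 sector hydrolyses ATP. Cells coordinate these genes through TFEB and TFE3, which bind CLEAR elements, palindromes built around an E-box. In microglia and macrophages, lysosomes digest apoptotic cells and opsonised particles, including those taken up through Fc receptors, and cathepsins trim antigens for MHC class II.

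To show that regulatory feature, promoters were read from RefSeq sequence of build GRCm38.p6, which holds windows from 250 bases before to 50 bases after a start site. Of the 43 members, 35 were matched by symbol, with 43 windows. The CLEAR core TCACGTGA was searched on both strands and contains the E-box CACGTG, so every CLEAR match is also an E-box match. The CLEAR core was in 14% of member windows, from 6 genes (Atp6v0d1, Atp6v1a, Ctsa, Ctsd, Gla and Mcoln1), against 0.97% of all 32851 windows. The E-box was in 27.9% of member windows, from 12 genes, against 7.15% of all windows. A match is a description of letters in the window and not of binding. Shown here are upstream stretches for 5 genes with the CLEAR core, in capitals, and for Lamp1 with 4 copies of the E-box, in capitals. They lie at chr16:44139354-44139421 (Atp6v1a, minus strand), chr2:164833749-164833772 (Ctsa, plus), chr7:142387908-142387937 (Ctsd, minus), chrX:134601182-134601211 (Gla, minus), chr8:3500462-3500491 (Mcoln1, plus) and chr8:13159070-13159160 (Lamp1, plus), upstream of the RefSeq start. The Ctsa, Ctsd and Mcoln1 stretches overlap an annotated exon of the same gene, and the Gla stretch an exon of Hnrnph2 on the other strand. For Gla the copy nearer to the start is shown.
Atp6v1a: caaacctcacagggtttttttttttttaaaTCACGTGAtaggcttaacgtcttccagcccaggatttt
Ctsa: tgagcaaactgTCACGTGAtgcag
Ctsd: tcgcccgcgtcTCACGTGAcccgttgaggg
Gla: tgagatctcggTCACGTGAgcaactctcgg
Mcoln1: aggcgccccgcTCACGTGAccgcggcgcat
Lamp1: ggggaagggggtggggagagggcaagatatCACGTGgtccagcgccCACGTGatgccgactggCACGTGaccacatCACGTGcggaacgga

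Lysosomal transcripts were abundant in these cells, and their order spanned more than 3 powers of 10. The members took 6.43, 6.43, 6.37 and 6.66% of all counts in control libraries 1 to 4 and 6.37, 6.19, 6.17 and 7.19% in IgG libraries 1 to 4, so the ranges overlapped. The 11 proteases alone took 4.32 to 4.53% in control and 4.16 to 4.99% in IgG. Per kilobase of exon, 33 of the 43 members lay at or above the 90th percentile of all tested genes and 38 at or above the 75th.

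The highest level belonged to Ctsd, the aspartic protease cathepsin D, with a mean of 8193 CPM per kb over all 8 libraries. Psap, the precursor of the saposins that present sphingolipids to their hydrolases, had 2401 CPM per kb and Ctsb, a cysteine protease, had 2362 CPM per kb. The levels of Psap and Ctsb differed by less than their spread, while Ctsd stood more than 3-fold above them. At the other end were Atp6v1h, a regulatory V1 subunit (8.82 CPM per kb), Tfeb (7.66 CPM per kb) and Ctsk, the cathepsin best known from osteoclasts (1.80 CPM per kb). Ctsk was the only member below the 50th percentile of tested genes, at percentile 31.2.

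**Figure D1:**
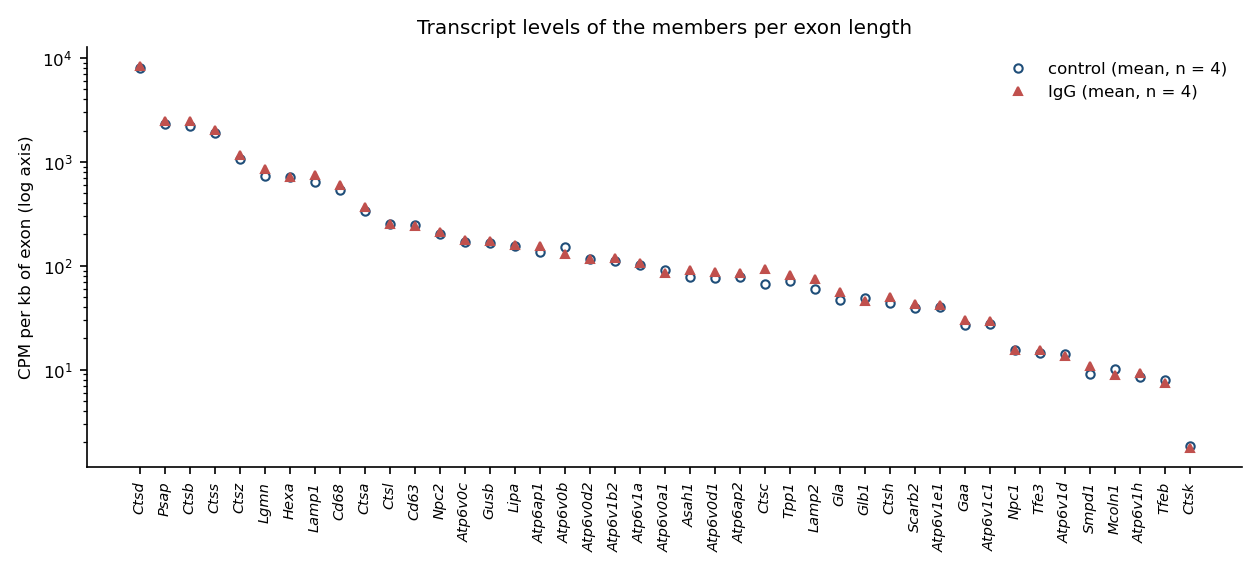
Mean level of each member per kilobase of exon in control (circles, n = 4) and IgG (triangles, n = 4) libraries, in CPM per kb on a log axis, ordered by the mean of all libraries. Ctsd stood alone at the top with 8193 CPM per kb and Ctsk at the bottom with 1.80, and for most members the control and IgG symbols nearly coincide.

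Not all of these levels are certain as single genes. The strand setting of the counting was not given in the sources used here, and no such setting separates genes on the same strand. For 6 members another gene overlaps more than 10% of the exon length. The largest overlap was for Ctsd, where the same-strand gene Gm49369 covers 34.4% of its exons, and Ctsl shares 26.8% with the opposite-strand gene Gm47123. Ctsb (with Fdft1, 12.8%), Hexa (Tmem202, 12.8%), Atp6v0b (Gm12841, 11.8%) and Ctsa (Pltp, 10.5%) follow. Atp6v0c, the proteolipid of the proton channel, has processed pseudogenes.

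IgG against control gave no member past correction. With edgeR's quasi-likelihood test and the replicate number as a block, 0 of 43 members had an adjusted p under 0.05, where 0.393% of all tested genes were called higher and 0% lower. The study's own criterion (unadjusted p below 0.01 with a log2 fold change beyond 0.5 in either direction) was met by 0 members, against 1.48% of genes higher and 0.342% lower. At an unadjusted p under 0.05 there were 3 members higher (6.98%; background 6.35%) and 0 lower (background 3.85%). The 3 were Ctsc, Lgmn and Gla. Without pair 1, 2 or 3, the members with such a p were 1, 5 and 1, all higher, where 3.04, 5.47 and 2.75% of all genes were higher. Without pair 4 there were 5 higher (12.1% of all genes) and 3 lower (11.3% of all genes), the latter being Mcoln1, Tfeb and Atp6v0b. Ctsc was among the higher members in each of these fits. With total counts alone as the scaling, Ctsc was higher while Mcoln1 and Atp6v0a1 were lower at this p, where 3.28% of all genes were higher and 8.68% lower. With length and GC trends removed, 7 members were higher (16.3%, against 8.98% of all genes) and 0 lower, with Ctsh, Gaa, Smpd1 and Atp6v0d1 joining the 3 named. At an adjusted p under 0.05, DESeq2's Wald test called 1 member (2.33%), Ctsc, where it called 1.22% of all genes higher. The likelihood ratio test of edgeR also called Ctsc alone, with 1.6% of all genes higher, and so did the looser filter of at least 1 count, with 0.972%. Without the block, 0 members were called and 3 had an unadjusted p under 0.05 (Ctsc, Gla and Smpd1), all higher, with 4.83% of all genes higher and 2.18% lower.

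The direction was uneven. Of the 43 members, 32 (74.4%) had a fitted log2 fold change above 0 and 11 were below, against 49% of all tested genes above and 51% below. The median log2 fold change over the members was 0.11 and over all genes -0.01. This count depended on the scaling: with total counts alone, 22 of 43 members were above 0. The median over the members was then 0.01 and that over all genes -0.11. A change of scaling moves all genes nearly alike, so the difference of the medians had to stay near 0.12 and tests nothing. In pairs 2 and 4 alone, without the IgG libraries of high mitochondrial share, 30 of 43 were above 0 and the difference of the medians was 0.06. Higher in all 4 pairs were 10 members (23.3%, against 10.4% of all genes), namely Ctsa, Ctsc, Ctsh, Ctsz, Lgmn, Gla, Gusb, Smpd1, Tfe3 and Atp6v0d1. Lower in all 4 pairs were 2 (4.65%, against 8.47%), Mcoln1 and Atp6v0a1. With length and GC trends removed from the pair changes, Mcoln1 was 0.114 and Atp6v0a1 0.033 in pair 4. Smpd1 was then -0.005 in pair 4 and Atp6v0d1 -0.003 in pair 2. Ctss, Gaa and Scarb2 became higher in all 4 pairs, and Lipa lower.

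The intervals describe the precision of each estimate in the main fit, gene by gene. They do not hold a shift from the scaling or from leaving out the block. For Ctsc the SE was 0.09 with the block and 0.18 without it. The 95% interval of the log2 fold change lay within 0.5 either side of 0 (1.41-fold) for 39 of 43 members and within 1 (2-fold) for all 43. The lowest bound was -0.68, for Atp6v0b, and the highest 0.66, for Ctsc. An interval reached a median of 0.23 to either side of its estimate and at most 0.45, for Ctsk, the member with the fewest counts.

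**Figure D2:**
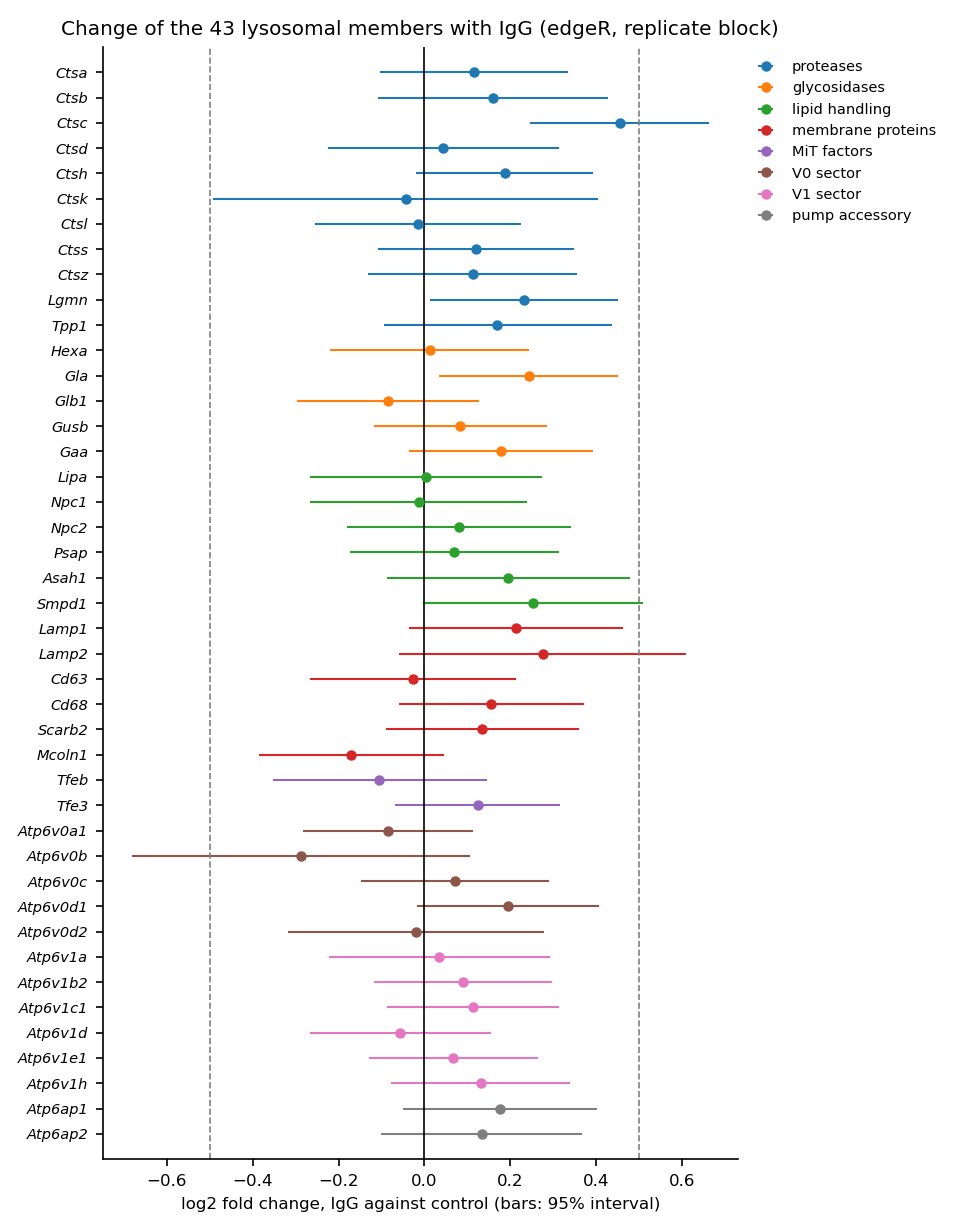
Log2 fold change of each of the 43 members, IgG against control, from edgeR with the replicate block (points) with its 95% interval (bars), coloured by functional group, with dashed lines at 0.5 either side of 0. The intervals of Ctsc, Lgmn and Gla lie above 0, none lies wholly below it, and that of Atp6v0b reaches farthest down, to -0.68.

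Among the 11 proteases, 9 had a fitted value above 0 and 2 below, with a median log2 fold change of 0.12, and 0 passed correction. Ctsc on chromosome 7 (88278085 to 88310888, plus strand) encodes cathepsin C, or dipeptidyl peptidase 1, which activates serine proteases by removing dipeptides. Its levels were 446, 349, 450 and 318 CPM in control libraries 1 to 4 and 671, 470, 626 and 398 CPM in IgG libraries 1 to 4. Every IgG library was above its own control, and the groups overlapped through IgG library 4, which lay among the controls. The log2 fold change was 0.46 (SE 0.09, n = 4 pairs), or 1.37-fold with an interval of 1.19 to 1.58. Its edgeR adjusted p was 0.110, and over the alternatives it ranged from 0.0064 to 0.728. It fell below 0.05 with the likelihood ratio test (0.0064), with DESeq2 (0.011) and with a looser filter of at least 1 count (0.0158). Without the block the edgeR adjusted p was 0.692.

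Lgmn on chromosome 12 (102394084 to 102439813, minus strand) encodes legumain, the asparaginyl endopeptidase that processes other cathepsins. Its levels were 1795, 1687, 1740 and 1554 CPM in control and 2263, 1842, 2020 and 1849 CPM in IgG. All IgG libraries were above all control libraries. The log2 fold change was 0.23 (SE 0.10), with an edgeR adjusted p of 0.475. Groups with no overlap were found for 3 members above (Ctsz, Lgmn and Tfe3, 6.98%, against 2.6% of all genes) and 1 below (Atp6v0a1, 2.33%, against 1.57%). These counts rest on the TMM scaling and were not repeated with another. Its factors were 0.9132 and 0.927 for IgG libraries 1 and 3, and 1.0241 to 1.0434 in control.

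Ctsz, a carboxypeptidase, had 1538.00, 1543.53, 1543.07 and 1516.98 CPM in control and 1607.20, 1545.21, 1552.77 and 1969.93 CPM in IgG. The groups were apart by less than 2 CPM at their closest, and the IgG mean was set by library 4. Its log2 fold change was 0.11 (SE 0.11). Ctsd had 18445, 18607, 18397 and 20151 CPM in control and 19049, 17363, 18291 and 23783 CPM in IgG, with library 4 highest in both groups. Its log2 fold change was 0.04 (SE 0.12).

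Ctsb had 13768, 13223, 13318 and 13554 CPM in control and 16915, 12711, 16069 and 14800 CPM in IgG. IgG libraries 1, 3 and 4 were above all controls while library 2 was below them (log2 fold change 0.16, SE 0.12). Ctsk had 2.1, 2.4, 3.2 and 3.4 CPM in control and 2.8, 2.4, 2.4 and 3.1 CPM in IgG, with overlapping groups and a log2 fold change of -0.04 (SE 0.20).

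The remaining proteases had log2 fold changes from -0.02 for Ctsl to 0.19 for Ctsh. Ctsh, an aminopeptidase, was higher in all 4 pairs by 0.14, 0.17, 0.07 and 0.36 (log2 fold change 0.19, SE 0.09). Ctsa, the protective protein of the galactosidase complex, was also higher in all 4 pairs, by 0.05 to 0.24. Ctss, which cuts the invariant chain of MHC class II, was at 0.12 (SE 0.10) and Tpp1, a tripeptidyl peptidase, at 0.17 (SE 0.12).

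The cysteine cathepsins Ctsl, Ctss and Ctsk were set side by side per exon length. Ctss stood above Ctsl by a log2 ratio of 2.89 ± 0.05 (SD, n = 4) in control and 3.02 ± 0.09 in IgG. The ratio was higher with IgG in 4 of 4 pairs by a mean of 0.14, with an exact sign-flip permutation p of 0.125 (two-sided), the smallest that 4 pairs allow. Ctsk stood below Ctsl by -6.89 ± 0.25 in control and -6.91 ± 0.07 in IgG, an exact permutation p of 1. Over the 6 paralogue ratios computed, none could pass a threshold of 0.05 with 4 pairs, before or after correction.

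The 5 glycosidases had a median log2 fold change of 0.08, with 4 above 0, 1 below and 0 past correction. Gla on chromosome X (134588149 to 134601125, minus strand) encodes alpha-galactosidase A, the enzyme lacking in Fabry disease, and its promoter carries 2 CLEAR cores. Its levels were 165, 140, 152 and 155 CPM in control and 209, 151, 198 and 173 CPM in IgG. It was higher in all 4 pairs, although IgG library 2 lay within the control range. The log2 fold change was 0.24 (SE 0.09), with an edgeR adjusted p of 0.454. Gaa, the acid alpha-glucosidase that digests glycogen, was at 0.18 (SE 0.09). Gusb (beta-glucuronidase), Hexa (the alpha subunit of beta-hexosaminidase) and Glb1 (beta-galactosidase) were at 0.08, 0.01 and -0.08, each with an SE of 0.09 or 0.10.

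The 6 genes of lipid handling had a median of 0.08, with 5 above 0, 1 below and 0 past correction. Smpd1 on chromosome 7 (105554360 to 105558389, plus strand) encodes acid sphingomyelinase. Its levels were 31.4, 31.5, 26.6 and 32.9 CPM in control and 37.5, 32.1, 39.6 and 36.6 CPM in IgG. It was higher in all 4 pairs, with IgG library 2 inside the control range. The log2 fold change was 0.25 (SE 0.11), with an edgeR adjusted p of 0.496.

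Psap had 6324, 6468, 6268 and 6613 CPM in control and 6742, 6181, 6486 and 7620 CPM in IgG, so that IgG library 2 was below and libraries 1 and 4 above every control (log2 fold change 0.07, SE 0.11). Asah1 (acid ceramidase) was at 0.20 (SE 0.12), with pair values of 0.43, -0.01, 0.48 and -0.12. Lipa (lysosomal acid lipase) and Npc1 (the membrane cholesterol exporter) rested near 0, at 0.00 and -0.01, from opposite pair values: Lipa was 0.18 and 0.26 higher in pairs 1 and 3 and -0.17 and -0.26 in pairs 2 and 4, and Npc1 had the same signs. With length and GC trends removed from the pair changes, Lipa was below 0 in all 4 pairs, at -0.081, -0.17, -0.004 and -0.052. Before any trend was removed, Npc2, the soluble sterol carrier, ran in the opposite direction to Npc1 in every pair, with -0.08, 0.11, -0.11 and 0.40. With length and GC trends removed from the pair changes, Npc1 was -0.073, -0.175, -0.056 and 0.075 in pairs 1 to 4. Npc2 was then -0.082, 0.11, -0.116 and 0.414, so the signs agreed in pairs 1, 3 and 4.

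Of the 6 membrane proteins, 4 had values above 0 and 2 below, with a median of 0.15 and 0 past correction. Lamp1, the abundant heavily glycosylated protein of the lysosomal membrane, had 1719, 1730, 1668 and 1755 CPM in control and 2221, 1714, 2153 and 1923 CPM in IgG. IgG libraries 1, 3 and 4 were above all controls and library 2 was among them. The log2 fold change was 0.21 (SE 0.11), with an edgeR adjusted p of 0.539.

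Lamp2, which serves chaperone-mediated autophagy and fusion with autophagosomes, had 592, 589, 567 and 560 CPM in control and 890, 593, 872 and 517 CPM in IgG. IgG libraries 1 and 3 were high, library 2 sat at the control level and library 4 below all controls. Its log2 fold change was 0.28 (SE 0.15, edgeR adjusted p 0.546), and -0.05 in pairs 2 and 4 alone. The level of Lamp2 relative to Lamp1 per exon length was -3.41 ± 0.05 (SD, n = 4, log2 ratio) in control and -3.35 ± 0.28 in IgG, an exact permutation p of 0.625.

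Mcoln1, the calcium channel TRPML1 and a gene with a CLEAR core at its promoter, had 74.7, 74.4, 76.2 and 78.4 CPM in control and 61.5, 71.4, 61.2 and 77.1 CPM in IgG. It was lower in all 4 pairs, by much the most in pairs 1 and 3, and the groups overlapped (log2 fold change -0.17, SE 0.09, edgeR adjusted p 0.559). Cd68, a macrophage sialomucin, was at 0.16 (SE 0.09), Scarb2, the receptor that carries glucocerebrosidase, at 0.14 (SE 0.10) and Cd63, a tetraspanin, at -0.03 (SE 0.10).

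The 2 transcription factors took opposite signs in the main fit, and neither passed correction. Tfeb turned above 0 with length and GC trends removed and in pairs 2 and 4 alone (0.058), where Tfe3 was also above 0. Tfe3 had 136, 135, 128 and 131 CPM in control and 145, 140, 150 and 143 CPM in IgG, with every IgG library above every control (log2 fold change 0.12, SE 0.08, edgeR adjusted p 0.614). Tfeb had 42.3, 49.0, 42.0 and 45.7 CPM in control and 34.5, 45.9, 35.5 and 52.7 CPM in IgG, lower in pairs 1 to 3 and higher in pair 4 (log2 fold change -0.11, SE 0.11). The ratio of Tfe3 to Tfeb per exon length was 0.85 ± 0.10 (SD, n = 4, log2) in control and 1.08 ± 0.32 in IgG, an exact permutation p of 0.25.

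The 13 proton pump genes had a median of 0.07, with 9 above 0 and 4 below, while the other 30 members had a median of 0.12, with 23 above and 7 below. The 5 V0 genes had 2 above and 3 below 0 and a median of -0.02, and 0 passed correction. Atp6v0d1, the ubiquitous d subunit, had the smallest p of this sector, with 131, 132, 141 and 141 CPM in control and 168, 132, 161 and 166 CPM in IgG. IgG libraries 1, 3 and 4 were above all controls (log2 fold change 0.19, SE 0.09, edgeR adjusted p 0.517).

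Atp6v0b, a proteolipid of the rotor ring on chromosome 4 (117884326 to 117887333, minus strand), varied most of the pump genes. Its control levels were within 4 CPM of each other, at 306, 308, 309 and 309 CPM. Its IgG levels were 190, 301, 189 and 375 CPM. IgG libraries 1 and 3 were low, library 2 was near the controls and library 4 was above them (log2 fold change -0.29, SE 0.17, edgeR adjusted p 0.582; 0.12 in pairs 2 and 4 alone).

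Atp6v0a1, the a subunit known from neurons, had 593, 616, 573 and 581 CPM in control and 567, 562, 560 and 536 CPM in IgG, with every IgG library below every control (log2 fold change -0.09, SE 0.09). Atp6v0c was at 0.07 (SE 0.10). Atp6v0d2, the d subunit of osteoclasts and macrophages, was at -0.02 (SE 0.13), with 0.19 and 0.33 in pairs 1 and 3 but -0.23 and -0.37 in pairs 2 and 4. Per exon length, the log2 ratio of Atp6v0d2 to Atp6v0d1 was 0.60 ± 0.10 (SD, n = 4) in control and 0.39 ± 0.30 in IgG, an exact permutation p of 0.25.

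The 6 V1 genes had 5 above and 1 below 0, with a median of 0.08 and 0 past correction. Atp6v1h had 82.5, 85.9, 81.6 and 78.0 CPM in control and 98.3, 83.5, 93.9 and 84.2 CPM in IgG, higher in pairs 1, 3 and 4 (log2 fold change 0.13, SE 0.09, edgeR adjusted p 0.619). Atp6v1a and Atp6v1b2, the subunits of the catalytic hexamer, were at 0.04 (SE 0.11) and 0.09 (SE 0.09). Their log2 ratio per exon length, Atp6v1b2 to Atp6v1a, was 0.11 ± 0.08 (SD, n = 4) in control and 0.17 ± 0.12 in IgG, an exact permutation p of 0.75. Atp6v1c1, Atp6v1d and Atp6v1e1, stalk subunits, were at 0.11, -0.06 and 0.07, each with an SE of 0.09. Of the accessory subunits, Atp6ap1 had 413, 401, 421 and 406 CPM in control and 522, 399, 517 and 428 CPM in IgG (log2 fold change 0.18, SE 0.10, edgeR adjusted p 0.563), and Atp6ap2, the (pro)renin receptor, was at 0.13 (SE 0.10).

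**Figure D3:**
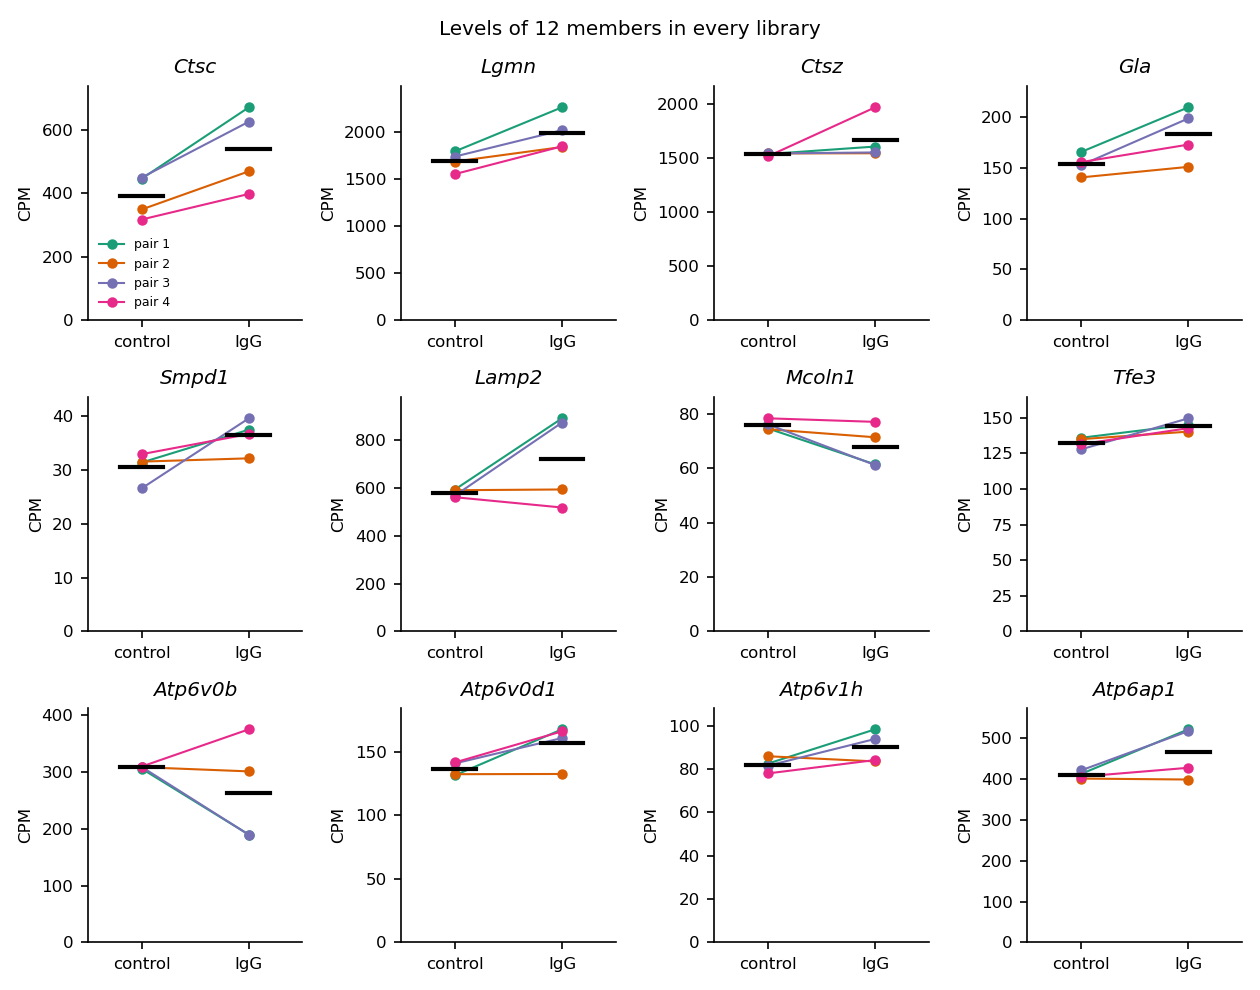
CPM of 12 members in control and IgG libraries, with a line for each of the 4 pairs and a black bar at each group mean (n = 4). Ctsc was higher with IgG in every pair, Atp6v0b was at 190 and 189 CPM in IgG libraries 1 and 3 against 306 and 309 CPM in their controls, and Lamp2 was high in those same IgG libraries.

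The pairs responded unequally. The median change over the members was 0.19, -0.01, 0.18 and 0.13 in pairs 1 to 4, against 0.01, 0.00, 0.02 and 0.00 over all genes. The number of members higher with IgG was 33, 16, 30 and 31. The extremes were Atp6v0b, lowest in pairs 1 and 3 (-0.69 and -0.71), Atp6v0d2, lowest in pairs 2 and 4 (-0.23 and -0.37), Ctsc, highest in pairs 1 and 2 (0.59 and 0.43), Lamp2, highest in pair 3 (0.62), and Npc2, highest in pair 4 (0.40).

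Across the 43 members, the changes in pairs 1 and 3 resembled each other (Spearman rho 0.80), while pair 4 ran against pairs 1 and 3 (rho -0.33 and -0.37). The corresponding values over all tested genes were 0.67, -0.18 and -0.17. Pair 2 had positive values with pairs 1, 3 and 4 (rho 0.36, 0.26 and 0.39), where all tested genes gave 0.13, 0.14 and 0.11. The pairs share no libraries, but IgG libraries 1 and 3 share the raised mitochondrial share, and members are not independent replicates.

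**Figure D4:**
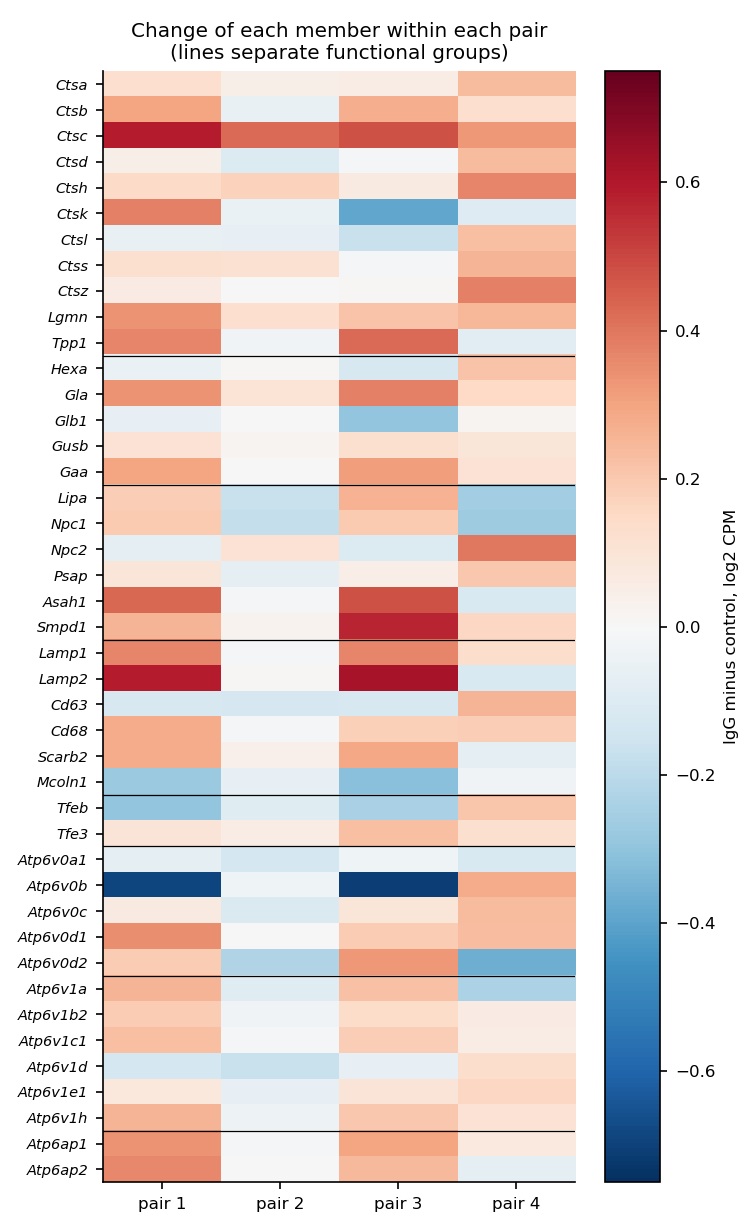
Change of each of the 43 members (rows, with lines between functional groups) in each of the 4 pairs (columns), as IgG minus control on the log2 CPM scale. Pairs 1 and 3 look alike, with Atp6v0b at -0.69 and -0.71 and Lamp2 at 0.59 and 0.62, pair 2 is nearly blank apart from Ctsc at 0.43, and pair 4 has Lipa and Atp6v0d2 in the opposite direction.

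The spread between libraries was larger with IgG. The median coefficient of variation over the members was 3.68% in control and 11.6% in IgG, and it was larger in IgG for 36 of 43 members (83.7%). Over all tested genes it was 9.12% and 19.4%, larger in IgG for 79.7%.

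Base composition moved with these changes. The GC content of the members' longest transcripts ran from 37.6 to 63.2%. Across members, the Spearman rho of change against GC was -0.39, 0.08, -0.37 and 0.53 in pairs 1 to 4, against -0.38, -0.03, -0.39 and 0.31 over 17503 genes. Lamp2 (38.7% GC) was among the highest and Atp6v0b (55.9% GC) the lowest in pairs 1 and 3. GC and length trends were also removed from the changes of each pair. The change of Lamp2 then became 0.20, 0.00, 0.22 and 0.26 in pairs 1 to 4, so that pair 4 changed sign. That of Atp6v0b became -0.45, -0.04, -0.45 and 0.05. Other members spread more after the removal: Atp6v1h (37.6% GC) became -0.15, -0.05, -0.23 and 0.50, its SD over pairs going from 0.13 to 0.33, and the SD of Ctsl went from 0.17 to 0.34 and that of Gaa from 0.15 to 0.30. The SD was larger after the removal for 19 of 43 members and smaller for 24. The rho between pairs 1 and 3 was 0.83 after this removal, and the median SD of a member's pair changes went from 0.15 to 0.13. The part of RNA or library quality in these values was not tested.

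**Figure D5:**
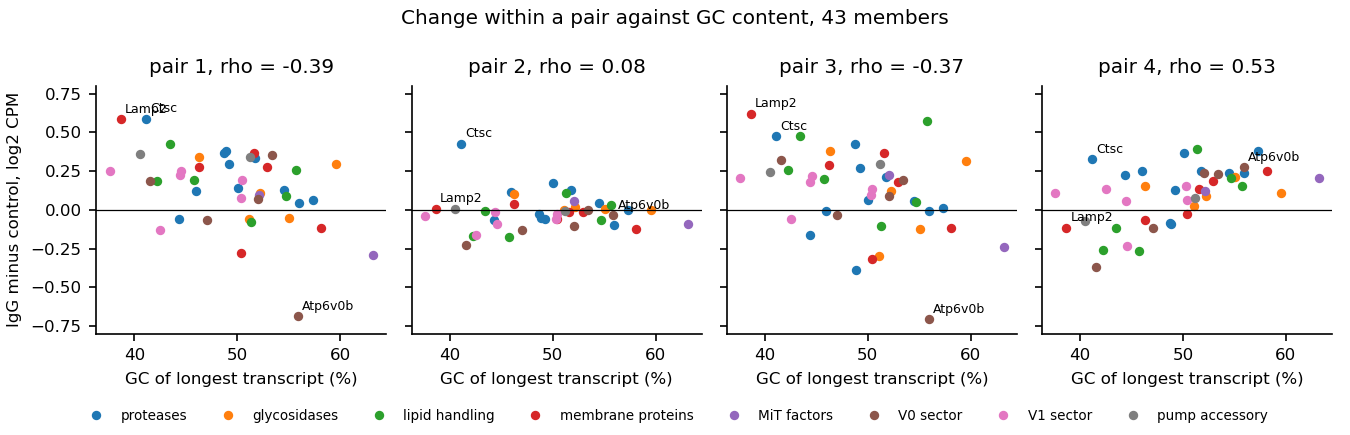
Change of each member within each pair (IgG minus control, log2 CPM) against the GC content of its longest transcript (percent), coloured by functional group, with Spearman rho over the 43 members above each panel. The slope is downward in pairs 1 and 3 (rho -0.39 and -0.37), near flat in pair 2 (0.08) and upward in pair 4 (0.53).

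The date itself was a term of the fit. With edgeR, 0 of 43 members had an adjusted p under 0.05 for the date, against 0.975% of all genes. Ctsc had the smallest p, with a range of 0.62 on the log2 scale and an adjusted p of 0.149, since libraries of pairs 2 and 4 were lower in both groups. The edgeR likelihood ratio test and the looser filter each called 1 member for the date, again Ctsc, where they called 5.38% and 2.84% of all genes. The median range of the members over dates was 0.20 on the log2 scale.

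Members with and without the promoter letters were set side by side. The 12 members with an E-box had a median log2 fold change of 0.08, from -0.29 (Atp6v0b) to 0.24 (Gla), and the 23 matched members without had a median of 0.08, up to 0.46. The 6 with the CLEAR core had a median of 0.08, from -0.17 (Mcoln1) to 0.24 (Gla). The core letters of the interferon-stimulated response element, GAAA, any 2 bases and GAAA again, on both strands, were in 7% of member windows (Atp6v1d, Ctss and Lamp1), against 3.44% of all windows, and these 3 genes had changes of -0.06, 0.12 and 0.21. No test was made of these medians.

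The wider lysosomal gene set, 120 other genes from lists by function, had 113 tested, of which 72 had a value above 0 and 41 below, with a median of 0.06. With edgeR, 0 were called at an adjusted p under 0.05 and 15 had an unadjusted p under 0.05, all higher (13.3%, against 6.35% of all genes). Of these, 10 were among the 43 other hydrolases and activators, whose median was 0.10. The 9 other pump subunits had a median of -0.04 (4 above, 5 below), the 29 other membrane proteins 0.07 (19 above, 10 below) and the 17 genes of MiT factors and nutrient sensing 0.02 (9 above, 8 below). The 11 enzyme delivery genes had a median of 0.01 (7 above, 4 below). The 4 cystatins, inhibitors of cysteine cathepsins, had a median of -0.19 (1 above, 3 below). They ran from Cst3 at -0.365 (SE 0.212) to Cst7 at 0.328 (SE 0.105). Cst7, higher in all 4 pairs, was the only cystatin with an unadjusted edgeR p under 0.05. Cst6, at -0.336 (SE 0.537), had only 0.05 to 0.70 CPM.

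The smallest p above 0 belonged to Pld4, an endolysosomal exonuclease, with 281, 165, 312 and 199 CPM in control and 410, 213, 431 and 277 CPM in IgG. It was higher in all 4 pairs (log2 fold change 0.47, SE 0.09, edgeR adjusted p 0.0759; called by DESeq2). Grn, the precursor of granulins, had 1673, 1458, 1523 and 1378 CPM in control and 2334, 1707, 2086 and 1786 CPM in IgG, with every IgG library above every control (log2 fold change 0.38, SE 0.10, edgeR adjusted p 0.245). Acp5, tartrate-resistant acid phosphatase, had a log2 fold change of 0.42 (SE 0.12, edgeR adjusted p 0.332) at levels of 9.00 to 20.8 CPM. Below 0, the smallest p belonged to Lamtor3, a Ragulator subunit (-0.19), Sort1, the sorting receptor sortilin (-0.20), and Rragb, a Rag GTPase below 5 CPM (-0.50), with edgeR adjusted p from 0.527 to 0.539.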

How the data were processed

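The authors deposited raw counts per Ensembl gene for 8 libraries, with no normalization or filter. Per the labels' processing notes, HISAT2 2.2.1, SAMtools 1.12, Picard 2.26.3 and featureCounts were used with GRCm38. Strand setting, annotation and treatment of multiply aligned reads are not given in the sources used here.

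Symbols, coordinates, exon length and GC came from GENCODE M21, which holds 55144 of the 55385 identifiers. Counts were scaled by TMM, filtered with filterByExpr and tested with edgeR 4.0.16 (quasi-likelihood) in R 4.3.3, IgG against control with the replicate number as a block. P-values were adjusted by Benjamini-Hochberg over all 17537 tested genes. CPM are TMM-scaled, and log2 CPM used a prior count of 2. A count of 0 allows up to 3 counts, or 0.127 to 0.141 CPM here, counting error only. Figures were drawn with matplotlib 3.10.9.

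The block rests on the dates in the labels. Deviations of same-numbered libraries from group means correlated at 0.443, 0.363, 0.246 and 0.31 over 12485 genes, and those of different numbers at -0.371 to 0.235. Over the 43 members alone the same-numbered values were 0.349, 0.38, -0.037 and 0.37, and control 1 with IgG 3 reached 0.388. No libraries of a group agreed within sampling noise. Each culture pooled several brains, so p-values measure the spread between these libraries and not between animals.

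Alternatives were no block, RLE or total-count scaling, other filters, edgeR's likelihood ratio test, DESeq2 1.42.0, removal of length and GC trends, leaving out each pair, and pairs 2 and 4 only. For the fit, the trends were removed from each library. For the values by pair, they were removed from the change of each pair. Members and lists were chosen with earlier results of these data known. Named by rule were members past correction or the study's criterion, the smallest p of each functional group, the 3 highest and 3 lowest levels, the paralogue sets, and the 3 other lysosomal genes of smallest p in each direction. Lgmn, Ctsz, Mcoln1, Atp6v0b and Atp6v0a1 were given in every library after their values were seen, as were Ctsa, Ctsh, Asah1, Lipa, Npc1 and Npc2 by pair and Ctsl and Gaa for their spread.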

Additional observations from a re-analysis of the deposited data

Results flagged for a closer look

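In 86 sets of 4 libraries (43 members in each group), 4 had a library set apart from the other 3 by Dixon's test, a share of 4.7%, where chance alone gives about 1 in 20. Ctsd in control library 4 was at 20150.79 CPM, against 18397.21 to 18606.57 in the others. Ctsz in IgG library 4 was at 1969.93 CPM, against 1545.21 to 1607.20. Cd63 was high in control library 2, at 937.65 CPM against 897.25 to 902.66, and in IgG library 4, at 1072.95 CPM against 826.33 to 860.58. Of the 4, 2 were in IgG library 4.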

How the results depend on the processing

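The count of 0 members with an adjusted p under 0.05 became 1, Ctsc, with a filter of at least 1 count, with the likelihood ratio test and with DESeq2, and the count for the date became 1 with that filter and that test. The count of other lysosomal genes went from 0 to 3 (Acp2, Pld4 and Grn) with at least 1 count, and to 1 (Pld4) with the likelihood ratio test, with DESeq2 and with length and GC trends removed. Without the replicate block no member was called, the median over the members was 0.12, and Atp6v0d2 turned to 0.003. With total counts alone the median over the members was 0.012. Of the 43 members, 20 kept their sign under all 13 alternatives (17 higher, 3 lower) and 23 did not, most of them near 0. Total counts alone turned 10 members and moved the median over all genes to -0.105, so that setting tests no single member. The causes were not tested.

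Lipa turned to -0.003 with RLE, DESeq2 and at least 1 count, to -0.025 with at least 10 counts, -0.07 with trends removed, -0.213 in pairs 2 and 4 and -0.097 with total counts, and Hexa to -0.016 with at least 10 counts and -0.088 with total counts. With trends removed, Atp6v1a was -0.015, Cd63 0.051 and Tfeb 0.054. In pairs 2 and 4 only, Scarb2 was -0.013, Atp6ap2 -0.034, Lamp2 -0.054, Tpp1 -0.055, Asah1 -0.063, Atp6v1a -0.165, Glb1 0.01, Tfeb 0.058, Cd63 0.065, Ctsl 0.081 and Atp6v0b 0.121. With total counts alone, Atp6v1b2 was -0.01, Gusb -0.016, Npc2 -0.02, Atp6v0c -0.029, Psap -0.03, Atp6v1e1 -0.033, Ctsd -0.056 and Atp6v1a -0.065. Leaving out each pair in turn gave Lipa -0.08 to 0.075, Cd63 -0.137 to 0.005, Atp6v1a -0.037 to 0.109, Ctsl -0.111 to 0.036, Npc1 -0.082 to 0.055, Atp6v0d2 -0.135 to 0.079, Ctsk -0.183 to 0.077, Ctsd -0.037 to 0.092, Hexa -0.072 to 0.057, Npc2 -0.041 to 0.144 and Atp6v0c 0 to 0.13.

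Over all genes, calls at an adjusted p under 0.05 went from 69 higher and 0 lower to 0 and 0 without the block, 305 and 71 with at least 1 count, 281 and 46 with the likelihood ratio test, 214 and 19 with DESeq2, 202 and 11 with trends removed, 37 and 0 with total counts, 154 and 36 in pairs 2 and 4, and 14, 0, 16 and 171 higher without pair 1, 2, 3 or 4, with 11 lower without pair 4 and 0 lower without each of the others. With 4 pairs, the intervals of the main fit reached a median of 0.23 to either side on the log2 scale. Smaller changes could go unseen in that fit.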
